A study of Mus musculus with 6 samples.

Results

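Proteasome genes were compared between 2 bulk RNA-seq cell types of the mouse, with 3 libraries of each. The genes are the 49 whose symbol runs from Psma to Psmg followed by a number, of 16279 genes listed in the count table of either cell type. The mESCs are male F1 embryonic stem cells of the cross C57BL/6 x CAST/EiJ (the mother being C57BL/6J by the study's methods), grown without feeder cells in a medium holding 2 kinase inhibitors and LIF. Each of the 3 is a clone raised from a single cell of its own mESC line, and each line came from a different blastocyst. The CPCCs are cardiac precursor cell cultures of the same genotype and sex, made from those clones through embryoid bodies and enriched in a medium holding EGF and Fgf2. They are mixed cultures rather than a purified cell type, and the table columns, named S01 to S03 for mESCs and S04 to S06 for CPCCs, do not say which clone a library came from. A lower level in a mixed culture can mean fewer cells of a type or less RNA per cell, and bulk samples cannot tell these apart.

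Of the 49 genes, 48 are listed in both tables and *Psmb8* is listed for CPCCs only. The test covered 47, because *Psmb8* has no mESC values and *Psmb9* did not pass the filter on low counts. *Psmb11*, the core gene of thymic epithelium, is in neither table. *Psmc3ip* matches the symbol rule but encodes a cofactor of meiotic recombination and no part of the proteasome, so it is counted among the 49 and described apart.

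The 26S proteasome degrades proteins that carry ubiquitin chains. Its 20S core is a stack of outer rings of alpha subunits and inner rings of beta subunits. Of the beta subunits, Psmb5, Psmb6 and Psmb7 cut peptide bonds, and in immune cells or under interferon the related Psmb8, Psmb9 and Psmb10 are built in instead, giving the immunoproteasome, whose peptides are well suited to loading on MHC class I. The 19S cap binds the chain, removes it and unfolds the substrate: its base holds the ATPases Psmc1 to Psmc6 and its lid holds the deubiquitinase Psmd14. PA28 (Psme1 with Psme2) can take the place of the cap, and the Psmg proteins are chaperones that put the alpha ring together. Transcription of the constitutive genes rises together under Nfe2l1 when proteasome activity falls short, while the immunoproteasome genes respond to interferon.

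The promoters of the catalytic genes are shown because *Psmb5* and *Psmb6* were lower and *Psmb10* was higher in CPCCs, with *Psmb8* listed there only. The 150 bases before the start site are from RefSeq (GRCm38.p6), 5′ to 3′ on the strand of the gene, with the match to a searched motif in capitals. The table of promoters used here has no entry for *Psmb7*.
Psmb8, chr17:34198045-34198194, plus strand: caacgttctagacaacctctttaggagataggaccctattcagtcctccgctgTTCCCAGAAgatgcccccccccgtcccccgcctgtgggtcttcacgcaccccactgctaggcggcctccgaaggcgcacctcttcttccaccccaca
Psmb9, chr17:34187331-34187480, minus strand: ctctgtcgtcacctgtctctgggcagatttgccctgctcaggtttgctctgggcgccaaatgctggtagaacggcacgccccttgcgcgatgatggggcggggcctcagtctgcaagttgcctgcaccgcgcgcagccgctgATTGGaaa
Psmb10, chr8:105938393-105938542, minus strand: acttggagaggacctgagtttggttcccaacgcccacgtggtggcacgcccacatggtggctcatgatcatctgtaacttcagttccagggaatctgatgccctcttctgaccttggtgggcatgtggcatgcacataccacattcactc
Psmb5, chr14:54617996-54618145, minus strand: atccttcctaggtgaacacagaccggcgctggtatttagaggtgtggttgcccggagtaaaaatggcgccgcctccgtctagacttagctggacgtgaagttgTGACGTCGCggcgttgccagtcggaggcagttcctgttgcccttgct
Psmb6, chr11:70525207-70525356, plus strand: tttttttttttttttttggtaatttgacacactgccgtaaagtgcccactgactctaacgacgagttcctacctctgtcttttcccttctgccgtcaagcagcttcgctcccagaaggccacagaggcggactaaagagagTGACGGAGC

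Capitals mark an ARE core (TGACNNNGC, the antioxidant response element that Nfe2l1 and Nfe2l2 can bind) in *Psmb5* and *Psmb6*, starting at -47 and -9 from the start site. They mark a GAS (TTCNNNGAA, the interferon gamma activated site) at -97 in *Psmb8* and a CCAAT box, read on the reverse strand, at -8 in *Psmb9*. *Psmb10* has none of the 4 motifs searched on both strands in the 300 bases from 250 before to 50 after the start, which says only that these letters are not in this window. The fourth motif was the ISRE, the interferon-stimulated response element (GAAA, any 2 bases, GAAA). Of 41 proteasome genes with an entry, 6 (14.6%) hold an ARE core, against 12.4% of all 32851 promoters. A CCAAT box is found in 14 (34.1%) against 37.4%, a GAS in 3 (7.32%) against 8.3%, and an ISRE in 5 (12.2%) against 3.44%. The 5 with an ISRE are *Psmb3*, *Psmd4*, *Psmd9*, *Psme1* and *Psmg4*, none of them a catalytic gene. A match describes letters only, and for 37 of the 41 the start lay within 1 base of that in the count tables.

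Library totals over all genes lay between 6442639 and 6907330 counts in mESCs and between 8468819 and 11436062 in CPCCs, where S04 was the deepest. A count of 3, taken as the floor, equals 0.298 to 0.463 counts per 1000000 (CPM, normalized by TMM). These values cover counting error only. The labelled cell types were checked against markers. All 10 pluripotency genes tested were lower in CPCCs at the threshold, and their summed level was between 6515 and 6649 CPM in mESCs and between 172 and 463 CPM in CPCCs. Of 10 cardiac precursor genes 4 were tested and only *Tnnt2*, which encodes cardiac troponin T, was higher at the threshold. *Isl1* and *Pdgfra* lay above the mESC libraries in every CPCC library without passing, and *Gata4* overlapped. *Mef2c*, *Myh6*, *Hand2*, *Kdr* and *Nkx2-5* are listed for CPCCs only. There *Myh6* had 21.2, 5.34 and 9.17 CPM in S04, S05 and S06, and *Nkx2-5* had at most 1.59 CPM. *Tbx5* is missing from the CPCC table and had 7, 0 and 4 counts in mESCs. Genes of mesenchymal cells summed to between 8414 and 12327 CPM in CPCCs against between 101 and 137 in mESCs.

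Across all 12471 genes tested, 61.4% differed between the cell types at the threshold (adjusted p under 0.05 in the quasi-likelihood test of edgeR), with 31.7% higher and 29.7% lower in CPCCs, and the median log2 fold change was 0.03. Of the 47 proteasome genes tested, 28 (59.6%) were lower in CPCCs and 1, *Psmb10*, was higher. The log2 fold change was negative in 39 of them (83.0%) and in 49.1% of all genes. All 3 CPCC libraries lay below all 3 mESC libraries for 33 of the 47 (70.2%), which held for 34.5% of all genes, and above them for 3 (6.38%), against 35.3% of all genes. Groups did not overlap, in either direction, for 69.7% of all genes. A fall of at least 2-fold past the threshold was found in 10 (21.3%), against 19.5% of all genes, and a rise of that size in 1, against 25.5%. The share of lower genes was thus above the background without a minimum size, and close to the background at 2-fold or more.

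**Figure D1:**
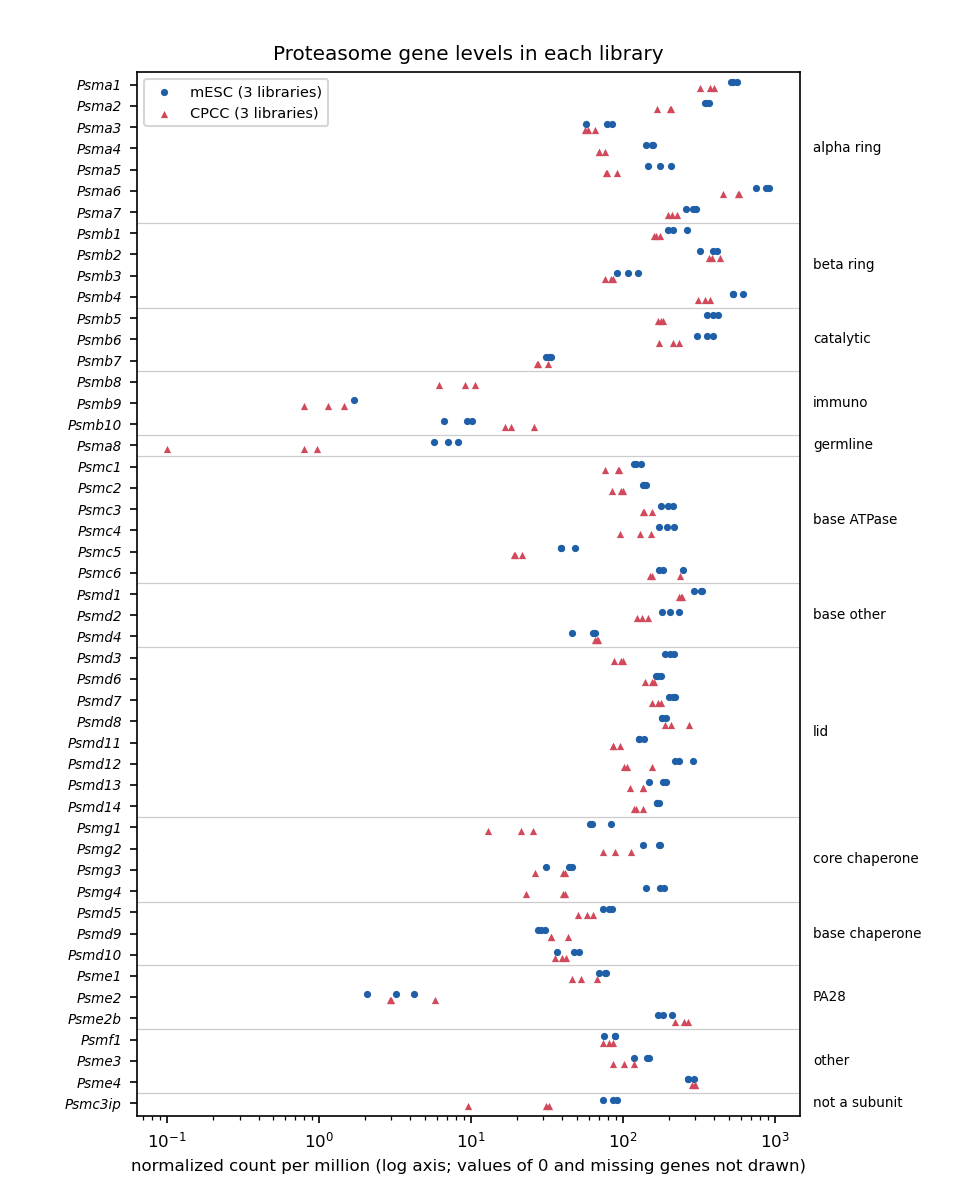
Normalized counts (CPM) on a log axis for the 49 genes in each library, grouped by role, with circles for the 3 mESC libraries and triangles for the 3 CPCC libraries. Values of 0 and genes missing from a table are not drawn. In the alpha ring the triangles lie to the left of the circles for 6 of 7 genes, while for *Psmb10* they lie to the right.

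Most of the 31 constitutive subunits of the 26S proteasome were lower in CPCCs, with log2 fold changes between -1.14 and 0.27 over the 31. Of these, 22 (71.0%) were lower in CPCCs and 0 were higher, with edgeR and with DESeq2. At an unadjusted p under 0.05 from edgeR 23 were lower and 0 higher, against 3968 lower and 4216 higher of all 12471 genes. Their median log2 fold change was -0.50. The middle part of the distribution, from the lower to the upper quartile, ran from -0.73 to -0.37, a width of 0.36, against -0.84 to 1.14, a width of 1.97, over all genes. Of the 31, 24 lay between the quartiles of all genes. Summed over the 31, the level was 7625, 7731 and 7002 CPM in S01, S02 and S03, against 4980, 5257 and 5147 CPM in S04, S05 and S06. The CPCC mean was 68.8% of the mESC mean, and no CPCC library reached the lowest mESC library.

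The 20S core fell in 10 of its 14 constitutive genes (median log2 fold change -0.61), and the 19S cap in 12 of 17 (median -0.46). Core genes summed to 4632, 4721 and 4072 CPM in mESCs and to 2726, 3048 and 3008 CPM in CPCCs, which is 65.4% of the mESC mean. The 17 cap genes summed to 2993, 3009 and 2929 CPM in mESCs and to 2254, 2208 and 2139 CPM in CPCCs, or 73.9%. Both sums were lower in every CPCC library than in any mESC library, and the difference between core and cap was not tested.

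In the alpha ring, which gates the entry to the core, 6 of 7 genes were lower (*Psma1*, *Psma2*, *Psma4*, *Psma5*, *Psma6* and *Psma7*), with a median log2 fold change of -0.66. *Psma5* had 209, 174 and 146 CPM in mESCs against 78.4, 77.7 and 91.7 CPM in CPCCs, and *Psma4* had 142, 158 and 155 against 75.9, 70.0 and 69.4 CPM. Both groups are well apart, with every mESC library above 140 CPM and every CPCC library under 95. Their log2 fold changes were -1.09 (standard error 0.18, edgeR adjusted p = 0.000853) and -1.08 (standard error 0.15, edgeR adjusted p = 0.000312). Of the windows of 100 bases in the *Psma5* transcript, 27.5% also occur in another gene, most often *Gm8394*, so its counts are less certain. *Psma3* had a log2 fold change of -0.28 and did not pass (edgeR adjusted p = 0.24), with S03 at 56.9 CPM among the CPCC values of 56.5 to 65.7 CPM. Its counts are also less certain, as 20.6% of its windows occur in *Gm13835*.

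Among the 4 beta ring genes without catalytic activity, *Psmb1* and *Psmb4* were lower and *Psmb2* and *Psmb3* did not pass. *Psmb4* had 528, 620.3 and 530.5 CPM in mESCs against 314, 374 and 350 CPM in CPCCs, a log2 fold change of -0.69 (standard error 0.15, edgeR adjusted p = 0.00346). *Psmb2* had 418, 393 and 324 CPM in mESCs against 371, 433 and 386 CPM in CPCCs, so the groups overlapped and its log2 fold change was 0.07. Of the 14 constitutive core genes, *Psmb2* was the only one with a positive log2 fold change, and it turned negative, at -0.03, without S03.

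**Figure D2:**
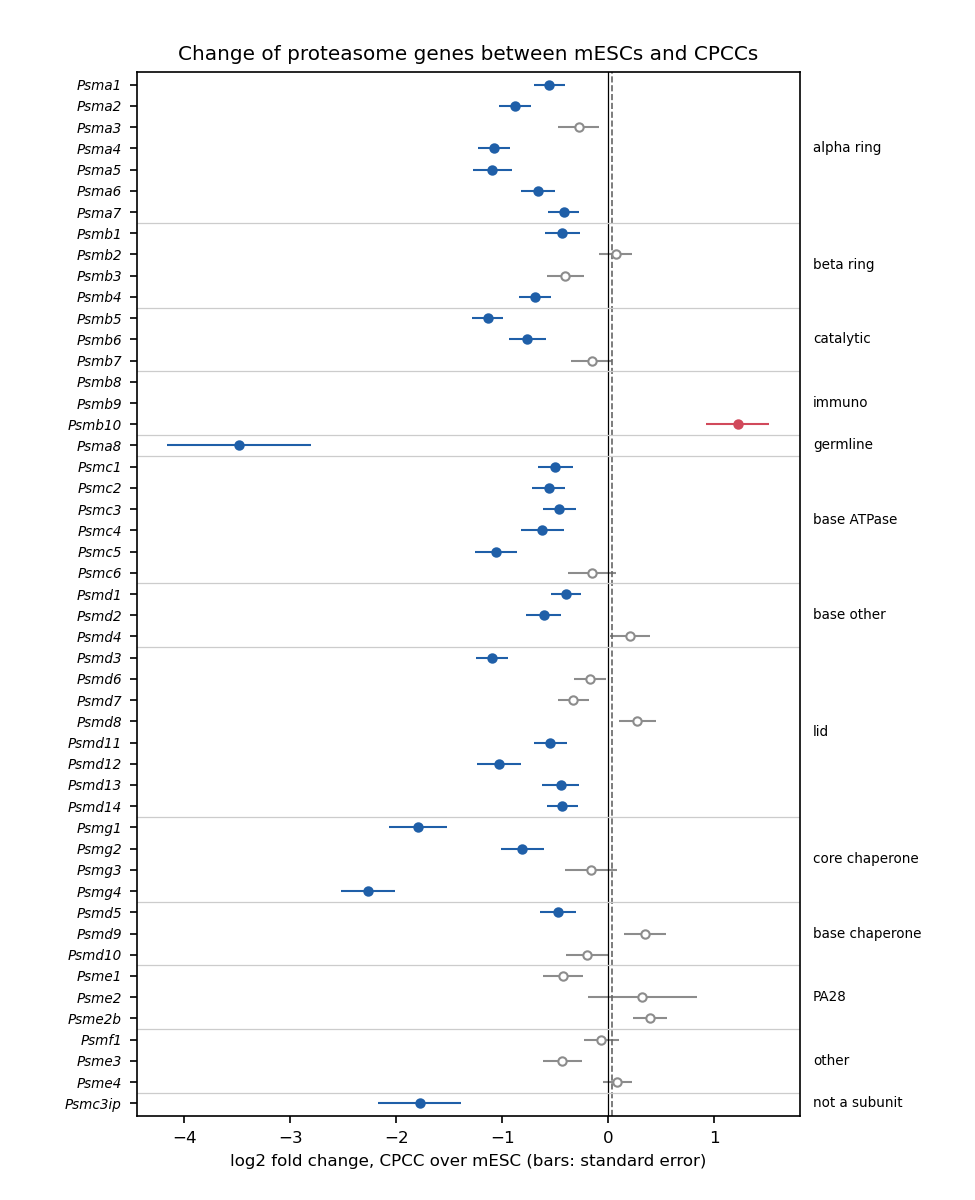
Log2 fold change (CPCC over mESC) of the 47 genes tested, with standard errors as bars, grouped by role. Filled blue points were lower and the filled red point, *Psmb10*, was higher at an adjusted p under 0.05, open points did not pass, and the dashed line is the median of all genes, 0.03. *Psmb8* and *Psmb9* were not tested and have no point.

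The constitutive catalytic genes did not move alike. *Psmb5*, the chymotrypsin-like subunit, had 422, 394 and 356 CPM in mESCs against 178, 169 and 184 CPM in CPCCs. The CPCC libraries lay close together and under every mESC library, and the log2 fold change was -1.14 (standard error 0.15, edgeR adjusted p = 0.000191), the largest fall among the 14 constitutive core genes. Of its windows of 100 bases, 24.9% also occur in another gene, most often *Gm3375*, so its counts, and the *Psmb8* share set against them, are less certain. *Psmb6*, the caspase-like subunit, had 359, 390 and 309 CPM in mESCs against 173, 235 and 215 CPM in CPCCs, again without overlap, and the log2 fold change was -0.76 (standard error 0.17, edgeR adjusted p = 0.0045). *Psmb7*, the trypsin-like subunit, had 32.7, 33.8 and 31.0 CPM in mESCs against 32.4, 27.5 and 27.3 CPM in CPCCs. S04 fell among the mESC libraries, and the log2 fold change of -0.16 did not pass (standard error 0.19, edgeR adjusted p = 0.496).

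In the finished core the 3 catalytic subunits are present in equal numbers, but their transcripts were not listed at equal levels. Per kilobase of coding sequence, *Psmb6* and *Psmb5* had 494 and 493 CPM in mESCs and *Psmb7* had 39.1 CPM. In CPCCs the levels per kilobase were 291, 224 and 35 CPM. Of the 31 constitutive genes ranked by this level, *Psmb7* stood 30th in mESCs, with only *Psmc5* under it at 34.6 CPM per kilobase, and both kept the lowest places in CPCCs. *Psma6* stood first in both, at 1150 and 726 CPM per kilobase. The counts are per gene, so untranslated parts can enter these ranks. In GENCODE's transcripts, 20% of the windows of 100 bases in *Psmb7* are shared with *Nek6* on the opposite strand, in a library kit that does not mark strand. *Nek6* itself was higher in CPCCs, from between 69.5 and 77.7 CPM to between 276 and 369 CPM.

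The immunoproteasome genes were low in both cell types. Of the 3, *Psmb10* was tested and rose in CPCCs, *Psmb8* was listed in CPCCs only and *Psmb9* was near the floor. *Psmb10* (chromosome 8, 105935728 to 105938393, minus strand), the trypsin-like subunit of the immunoproteasome, had 6.64, 10.1 and 9.36 CPM in mESCs against 16.7, 18.4 and 26 CPM in CPCCs. Every CPCC library lay above every mESC library, with S06 the highest, and the log2 fold change was 1.22 (standard error 0.30, edgeR adjusted p = 0.00616). Over the 6 fits that each leave out a library, it lay between 1.01 and 1.36 and passed the threshold every time.

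*Psmb8* (chromosome 17, 34198195 to 34201455, plus strand), the chymotrypsin-like subunit of the immunoproteasome, had 107, 75 and 54 counts in S04, S05 and S06, or 10.6, 9.09 and 6.19 CPM. The mESC table, in which no gene has fewer than 10 counts over its 3 libraries, does not list it. Against a floor of 3 counts per library, *Psmb8* was at least 19.3-fold higher in CPCCs. *Psmb9* (chromosome 17, 34182099 to 34187331, minus strand), the caspase-like subunit of the immunoproteasome, had 11, 0 and 0 counts in mESCs and 8, 12 and 10 in CPCCs. The groups overlapped through S01, no library had more than 1.70 CPM, and *Psmb9* was not tested.

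*Psmb9* and *Psmb8* lie on either side of *Tap1*, which encodes a subunit of the MHC class I peptide transporter and whose first exon is head to head with that of *Psmb9*. The *Tap1* and *Psmb9* genes are 225 bases apart in the tables. *Tap1* had 2.94, 1.91 and 3.66 CPM in mESCs against 82.8, 67.8 and 51.5 CPM in CPCCs, a log2 fold change of 4.56 (edgeR adjusted p = 6.28e-06). The 3 genes were thus listed at different levels in CPCCs, with *Tap1* above 50 CPM, *Psmb8* between 6.19 and 10.6 CPM and *Psmb9* between 0.795 and 1.46 CPM. In transcripts of GENCODE, 9.02% of the windows of 100 bases in *Psmb9* are shared with *Tap1* on the opposite strand.

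Within a library, the share of the immunoproteasome gene in its catalytic pair does not depend on normalization between libraries. On counts per coding length, *Psmb10* made up 17.1%, 23.3% and 23.4% of *Psmb10* plus *Psmb7* in S01, S02 and S03, against 34.3%, 40.5% and 49.1% in S04, S05 and S06. All CPCC shares lay above all mESC shares (exact permutation test, two-sided, p = 0.10, which is the lowest value 3 against 3 can reach, and 0.20 adjusted over the 2 pairs tested). *Psmb7* is itself listed at a low level, and this share is far larger than those of the other pairs. It is also less certain, because *Psmb7* shares 20% of its windows of 100 bases with *Nek6*, which was higher in CPCCs. *Psmb8* made up 5.40%, 4.88% and 3.11% of *Psmb8* plus *Psmb5* in CPCCs, and the 3-count floor in mESCs equals 0.105% to 0.118%. *Psmb9* made up 0.512%, 0% and 0% of *Psmb9* plus *Psmb6* in mESCs and 0.498%, 0.667% and 0.577% in CPCCs (two-sided exact permutation p = 0.20, and 0.20 adjusted). A count of 0 in S02 and S03 allows shares of up to 0.123% and 0.154%. *Psmb5* and *Psmb8* are identical over 67.4% of aligned coding bases, *Psmb6* and *Psmb9* over 66.2% and *Psmb7* and *Psmb10* over 63.3%, with no identical run over 18 bases, so reads of 1 gene are unlikely to be counted for its partner.

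**Figure D3:**
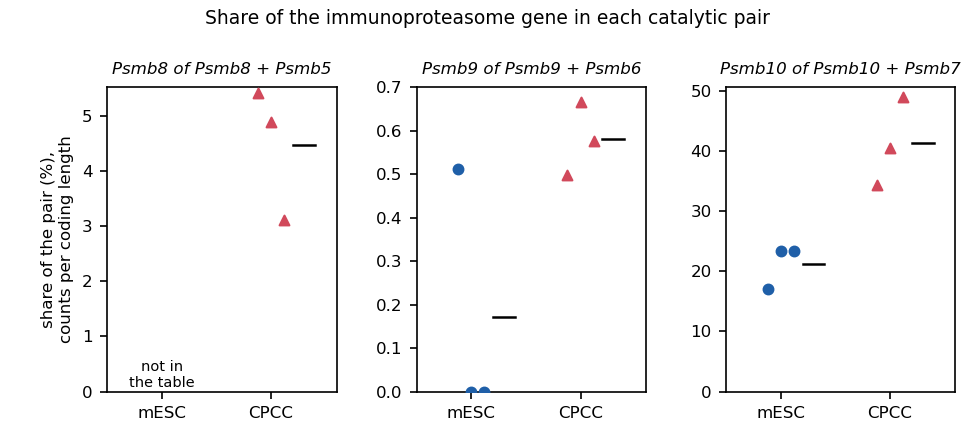
Share of the immunoproteasome gene in each catalytic pair, in percent of counts per coding length, for each library, with circles for mESCs, triangles for CPCCs and a short line for the mean. The axes differ between panels and each starts at 0. For *Psmb10* the CPCC shares of 34.3% to 49.1% lie above the mESC shares of 17.1% to 23.4%, and *Psmb8* is not in the mESC table.

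Markers of blood and immune cells, in which immunoproteasome genes are abundant, varied between the CPCC libraries. Of 12 markers, 11 are in the tables, 7 of them for CPCCs only, and 1 of the 3 tested, *Cd68*, was higher at the threshold. Their summed level was between 64.4 and 80.3 CPM in mESCs, against 304, 105 and 46.3 CPM in S04, S05 and S06. *Lyz2* had 125, 33.1 and 14 CPM, *Csf1r* had 55.8, 19.2 and 4.93 CPM, and *Ptprc*, which encodes CD45, had 15.6, 2.79 and 0.344 CPM in the same libraries. *Cd3e* is listed for mESCs only. *Laptm5*, which makes up most of the mESC sum, had 59.9, 59.4 and 51.3 CPM in mESCs against 48.4, 19.2 and 9.05 CPM in CPCCs, with no overlap and CPCCs below, and did not pass (edgeR adjusted p = 0.0665). *Psmb8* was highest in S04 and lowest in S06, as were *Lyz2*, *Csf1r* and *Ptprc*, and *Psmb10* was lowest in S04 and highest in S06. Not every marker had the order of *Psmb8*, as *Aif1* had 3.48, 3.52 and 0.229 CPM and *Cd74* 1.69, 0.970 and 1.49 CPM. That order also held for *Vim* and *Tap1*, which are not on this list, while *Col1a1* was highest in S05. The log2 fold change of *Psmb10* was 1.36 without S04, and it passed the threshold whichever of the 6 libraries was left out (edgeR). The part of blood and immune cells in the values of *Psmb8* and *Psmb10* was not tested.

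In the base of the 19S cap, 5 of the 6 ATPases were lower, with a median log2 fold change of -0.53 over the 6. *Psmc5* had 38.9, 48.5 and 39.1 CPM in mESCs against 19.3, 19.6 and 21.8 CPM in CPCCs, a log2 fold change of -1.06 (standard error 0.20, edgeR adjusted p = 0.00164). The exception was *Psmc6*, which had 183, 173 and 248 CPM in mESCs against 238, 150 and 156 CPM in CPCCs. Its groups overlapped, and its log2 fold change went from -0.15 to 0.03 without S03. The scaffold genes *Psmd1* and *Psmd2* were lower, with log2 fold changes of -0.40 and -0.61, while the ubiquitin receptor gene *Psmd4* overlapped between the groups at 0.20.

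In the lid, 5 of 8 genes were lower. *Psmd3* had 218, 204 and 189 CPM in mESCs against 87.6, 97.4 and 101 CPM in CPCCs, and *Psmd12* had 234, 221 and 289 against 156, 107 and 102 CPM. The CPCC libraries lay under the mESC libraries for both, with log2 fold changes of -1.10 (standard error 0.15, edgeR adjusted p = 0.000309) and -1.03 (standard error 0.21, edgeR adjusted p = 0.00239). *Psmd14*, the deubiquitinase, had a smaller log2 fold change of -0.43 (edgeR adjusted p = 0.0301), and *Psmd11* and *Psmd13* had -0.55 and -0.45. *Psmd13* passed narrowly (edgeR adjusted p = 0.0481), and 12.9% of its windows of 100 bases are shared with *Sirt3* on the opposite strand, which fell from between 31.1 and 35.9 CPM to between 4.77 and 13.2 CPM. *Psmd6*, *Psmd7* and *Psmd8* did not pass, at -0.17, -0.33 and 0.27. Of the 31 constitutive genes, *Psmd8* had the largest positive log2 fold change, with S04 at 275 CPM and the other 5 libraries between 181 and 207 CPM.

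The genes for chaperones of core assembly held the largest falls among genes of the proteasome other than *Psma8*. *Psmg4* (chromosome 13, 34162964 to 34178173, plus strand) had 188, 176 and 142 CPM in mESCs against 23.2, 40.5 and 41.6 CPM in CPCCs. Every mESC library was more than 100 CPM above every CPCC library, and the log2 fold change was -2.27 (standard error 0.25, edgeR adjusted p = 8.07e-05). *Psmg1* (chromosome 16, 95979933 to 95990961, minus strand) had 62.7, 83.5 and 60.6 CPM in mESCs against 12.9, 21.3 and 25.4 CPM in CPCCs, a log2 fold change of -1.79 (standard error 0.28, edgeR adjusted p = 0.000498).

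Psmg1 and Psmg2 form one dimer and Psmg3 and Psmg4 another, and within neither pair were the changes of similar size. *Psmg2* had 173, 175 and 136 CPM in mESCs against 73.8, 88.4 and 114 CPM in CPCCs, and the log2 fold change was -0.81 (standard error 0.20, edgeR adjusted p = 0.00733). *Psmg3* had 46.3, 44.3 and 31.3 CPM in mESCs against 26.5, 40.5 and 41.7 CPM in CPCCs. Its groups overlapped, its log2 fold change of -0.17 did not pass (standard error 0.25, edgeR adjusted p = 0.582), and without S04 it was 0.03. Of the windows of 100 bases in *Psmg3*, 17.7% also occur in *Gm26938*, so its counts are less certain. The differences between partners were not tested. Summed, the 4 core chaperone genes had 471, 479 and 370 CPM in mESCs against 136, 191 and 222 CPM in CPCCs, or 41.6% of the mESC mean. Of the 3 chaperones of base assembly, *Psmd5* was lower (-0.47), and *Psmd9* and *Psmd10* did not pass, at 0.34 and -0.20, with all CPCC libraries above the mESC libraries for *Psmd9*.

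**Figure D4:**
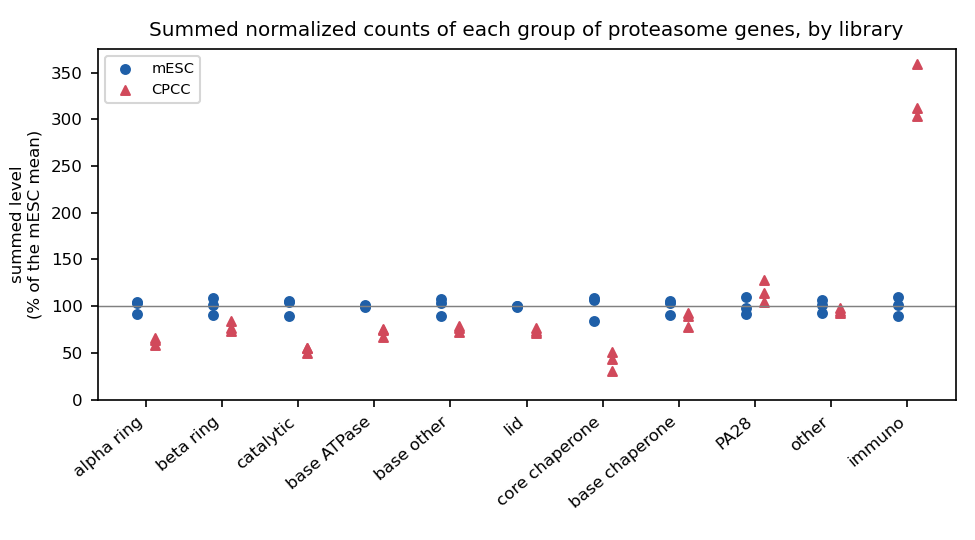
Summed normalized counts (CPM) of each group of proteasome genes in each library, as percent of the mean of the 3 mESC libraries, with circles for mESCs and triangles for CPCCs. The groups of core and cap genes lie under 100% in every CPCC library, core chaperones average 41.6%, and the sum of the immunoproteasome genes, which leaves *Psmb8* out of the mESC values, averages 325%.

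None of the activator and inhibitor genes passed the threshold of edgeR or DESeq2. At an unadjusted p under 0.05 from edgeR, 1 of the 3 PA28 genes was higher and 1 of the other 3 was lower. Of all 12471 genes, 4216 were higher and 3968 lower at that threshold, so these counts do not stand out. *Psme1*, PA28 alpha, had 77.9, 75.9 and 69.6 CPM in mESCs against 46.5, 67.2 and 52.8 CPM in CPCCs. Its groups did not overlap, and the log2 fold change was -0.42 (standard error 0.19, edgeR adjusted p = 0.0772). *Psme3*, the nuclear PA28 gamma, had -0.43 (edgeR adjusted p = 0.0637), *Psme4*, the activator PA200, had 0.09 and *Psmf1*, the inhibitor PI31, had -0.07.

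PA28 beta is listed under 2 genes of nearly the same sequence, and most of the counts were in *Psme2b*. *Psme2* (chromosome 14, 55587440 to 55591102, minus strand) had 4.23, 2.07 and 3.24 CPM in mESCs against 5.84, 2.93 and 2.99 CPM in CPCCs, while *Psme2b* (chromosome 11, 48945352 to 48946411, minus strand) had 212, 183 and 172 against 251, 270 and 221 CPM. *Psme2* thus took between 1.07% and 2.27% of the sum of both genes in a library. Their coding sequences of 717 bases are identical at 712 positions (99.3%), with an identical run of 311 bases. Coding bases 424 to 543 of GENCODE's transcripts are shown because they hold 3 of the 5 differences, which are in capitals.
Psme2: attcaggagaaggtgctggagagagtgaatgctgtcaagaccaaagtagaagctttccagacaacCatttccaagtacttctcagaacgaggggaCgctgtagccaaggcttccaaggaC
Psme2b: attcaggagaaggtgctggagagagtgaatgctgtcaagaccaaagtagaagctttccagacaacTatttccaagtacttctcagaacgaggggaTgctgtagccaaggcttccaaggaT

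Of the windows of 100 bases in the transcripts, 44.5% of those in *Psme2* and 52.0% of those in *Psme2b* also occur in the other gene, so the split of counts between them is uncertain. *Psme2* had a log2 fold change of 0.32 (standard error 0.52, edgeR adjusted p = 0.61) and *Psme2b* of 0.39 (standard error 0.16, edgeR adjusted p = 0.0596). Summed before the fit, both had 216, 185 and 175 CPM in mESCs against 257, 273 and 224 CPM in CPCCs. Every CPCC library lay above every mESC library, but the log2 fold change of 0.39 missed the threshold (standard error 0.16, edgeR adjusted p = 0.0605). PA28 alpha and PA28 beta, which form 1 ring, thus had log2 fold changes of opposite sign, neither past the threshold.

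*Psma8*, the alpha subunit of testis proteasomes and a relative of *Psma7*, had the largest fall of all 47 genes. It had 5.72, 8.24 and 7.02 CPM in mESCs against 0.0994, 0.970 and 0.802 CPM in CPCCs, where S04 held 1 count and lay under its floor of 0.298 CPM. The log2 fold change was -3.49 (standard error 0.68, edgeR adjusted p = 0.00192). *Psma7* and *Psma8* are identical over 74.9% of aligned coding bases, with no identical run over 17 bases. *Psmc3ip* had 86.0, 91.9 and 74.2 CPM in mESCs against 9.64, 31.4 and 32.5 CPM in CPCCs, a log2 fold change of -1.78 (standard error 0.39, edgeR adjusted p = 0.00377), and 24.0% of its windows of 100 bases are shared with *Mlx* on the opposite strand. Of 8 germ cell markers 5 were tested and all 5 were lower in CPCCs, their summed level being between 262 and 386 CPM in mESCs, where *Dazl* had at least 214 CPM, and between 7.67 and 16.3 CPM in CPCCs. The part of such cells in either gene was not tested.

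Proteasome genes whose symbols the rule does not reach were counted beside the members. Of 12 such genes 11 were tested, with 5 lower, 1 higher and a median log2 fold change of -0.40. Over all genes tested, 29.7% were lower and 31.7% higher. *Pomp*, the maturation factor of the core, had -0.63 and *Adrm1*, a ubiquitin receptor of the cap, had -1.02. The largest fall was in *Uchl5*, a deubiquitinase of the cap, at -1.35, and *AI314180*, the mouse gene for Ecm29, which clamps core and cap together, rose by 0.60 on the log2 scale. *Sem1*, a small lid subunit, had 0.03 and overlapped between the groups.

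Of 14 genes on the control of proteasome transcription, 6 were higher and 2 lower in CPCCs, against 31.7% higher and 29.7% lower over all genes. *Nfe2l1* had 60.4, 58.2 and 58.5 CPM in mESCs against 112, 102 and 87.7 CPM in CPCCs, a log2 fold change of 0.76 (standard error 0.17, edgeR adjusted p = 0.00346). The genes for the enzymes that process its protein, *Ddi2* and *Ngly1*, were higher by 1.70 and 1.76 on the log2 scale. The largest rise was in *Mafk*, a small Maf partner, at 3.57, and the largest fall in *Nqo1*, a target of Nfe2l2, at -1.12. *Nfe2l2* overlapped between the groups at -0.38. Of 14 genes of ubiquitin supply and delivery, 3 were higher and 5 were lower, with *Rps27a* at -1.30 the most. With so few genes, these counts are not set apart from the shares over all genes.

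Of 18 genes of interferon response and antigen processing, 14 were tested, with 9 higher, 2 lower and a median log2 fold change of 1.31. Over all genes tested, 31.7% were higher and 29.7% lower. The largest rise was in *Tap1* and the largest fall in *Irf9*, a transcription factor of the type I interferon response, at -1.14. *Irf1*, which can drive immunoproteasome genes, had a log2 fold change of 0.20 and did not pass (edgeR adjusted p = 0.307). *Psmb10* lay close to the median of this list, and *Tap2*, *Nlrc5*, *Ifit1* and *Isg15* are listed for CPCCs only. Against 3 counts per mESC library, *Tap2*, *Ifit1* and *Isg15* were at least 5.61-, 5.81- and 2.64-fold higher in CPCCs. *Nlrc5*, with 7, 1 and 2 counts, averaged 0.349 CPM in CPCCs, under the mESC floor of 0.439 to 0.463 CPM.

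With 1 library left out in turn, between 17 and 27 proteasome genes were lower at the threshold. The count was 17 without S01 and 18 without S02, and 26 without S04. Of the 28 genes, 16 were lower in all 6 of these fits: *Psma2*, *Psma4*, *Psma5*, *Psma6*, *Psma8*, *Psmb4*, *Psmb5*, *Psmb6*, *Psmc2*, *Psmc3ip*, *Psmc5*, *Psmd3*, *Psmd12*, *Psmg1*, *Psmg2* and *Psmg4*. The other 12, with log2 fold changes between -0.62 and -0.40, missed the threshold in at least 1 of the fits.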

How the data were processed

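Bulk RNA-seq of 3 mESC and 3 CPCC samples was used, with groups from the labels. The authors deposited estimated counts (expected counts, 17.9% to 21.5% of values per library not whole), 1 table per cell type, not normalized and not split by allele. The submitters' processing notes name STAR 2.7 and the build mm10. The counting tool of the bulk tables is not given in the sources used here. Counts were rounded. Of the 13001 genes in both tables, 12471 passed filterByExpr and were tested with edgeR 4.0.16 (R 4.3.3; quasi-likelihood, TMM, Benjamini-Hochberg over all genes tested, threshold 0.05). CPM used TMM library sizes, and sums left missing genes out. Genes in 1 table were compared with 3 counts per library. On simulated data, 177 of 200 changed genes among 13001 were recovered, 119 of 120 at 4-fold or more, with 12 false calls. In the libraries themselves 61.4% of genes passed the threshold, and recovery at such a share was not tested. Recovery under 2-fold is not given by these counts, and only 10 of the 28 lower proteasome genes fell at least 2-fold.

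Coding lengths and shared windows of 100 bases came from GENCODE M21 and promoters from RefSeq. The members and lists were chosen with earlier results of these data known. The catalytic and PA28 genes get full statistics, as do the 3 genes that rose most and the 3 that fell most at the threshold (only 1 rose). Other members get a value or a count, and those given in more detail were picked with their values known. In each pathway list the largest rise and fall were named, except 1 that is not reported here, and others were picked with their values known. Alternatives were DESeq2 1.42.0, other scalings, filters and library sizes, other values for missing genes, and leaving out each library.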

Additional observations from a re-analysis of the deposited data

How the results depend on the processing

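With DESeq2, all 47 proteasome genes kept their direction and side of the threshold. Over every alternative, 25 of 47 did so, and 0 of the genes past the threshold changed sign. With a 2-fold minimum, 11 passed, 10 lower and 1 higher. Leaving out 1 library gave 18 to 28 genes past the threshold, 17 to 27 lower and 1 to 2 higher. The number higher was 2 with at least 10 counts in every library, 3 with missing genes at 0 counts and 2 with missing genes at 3 counts, the added genes being *Psme2b*, *Psmb8* or both. Library totals without TMM left 24 genes, 23 of them lower.

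The median log2 fold change of the 19S cap was -0.40 with at least 10 counts in every library, -0.54 with missing genes at 3 counts, and -0.53 to -0.43 with 1 library left out. That of the lid was -0.37 and -0.51 under the same first settings. For the immunoproteasome genes it was 5.17 where missing genes were set to 0 counts and 2.66 for 3 counts, where *Psmb8* enters, and 0.84 to 1.29 with 1 library left out, where *Psmb9* enters without S02, S03, S04 or S06. The setting of 0 counts also moved the median of all genes from 0.03 to 0.17. The PA28 median was -0.081 without S04, where it is the value of *Psme2*, and -0.081 to 0.48 over the fits without 1 library. The median of the other activators and the inhibitor, set by *Psmf1*, was 0.000526 with at least 10 counts in every library. Signs of genes that never passed also turned: *Psmb2* was -0.0019 with missing genes at 3 counts, and with 1 library left out *Psmb2* ran from -0.032 to 0.14, *Psmc6* from -0.38 to 0.026, *Psme2* from -0.081 to 0.57 and *Psmg3* from -0.32 to 0.031. For these the cause was not tested. By transcript length, an alternative chosen after seeing the data, the mean CPCC share was 2.63% for *Psmb8* and 0.316% for *Psmb9*. By coding length these means were 4.47% and 0.581%, so the size of both shares depends on the length used.

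No paired analysis was possible because the table columns carry no replicate numbers. Depth limits *Psmb9*, *Psma8* in CPCCs and *Psmb8* in mESCs, which are near the floor. With 3 libraries a group, a missed threshold does not show equal levels.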
